A study of Mus musculus with 10 samples.

Results

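The p53 pathway was examined in the mouse line αTC1, which came from a pancreatic tumour of glucagon-producing cells, through Trp53, the gene for p53, and 9 genes that p53 is known to induce. The 10 genes were taken by symbol from a count table of 33212 genes, and 9 of them had enough counts to test among 14156 tested genes. Polyadenylated RNA had been sequenced after 48 h in 10 μM enzalutamide, a blocker of the androgen receptor (5 libraries), or after 48 h in the solvent DMSO (5 libraries). All 10 libraries came from this 1 line, which was established from a mouse in which the SV40 large T antigen is expressed in α cells, so controls and treated cells share the antigen.

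p53 is a transcription factor that responds to DNA damage and other stress by inducing genes of cell cycle arrest, DNA repair and cell death. One of its targets, Mdm2, encodes the ubiquitin ligase that marks p53 for degradation, which closes a feedback loop. Large T antigen binds p53 and keeps it from activating its targets while the bound protein accumulates, and it also binds the retinoblastoma family, so the output of p53 in lines made with it may be uncoupled from the amount of p53. RNA levels of Trp53 do not report p53 protein or its activity, which were not measured here.

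The data showed no common direction among these genes. Trp53inp1, which encodes a stress protein that promotes autophagy and p53 activity, rose 2.67-fold, and Plk2, a polo-like kinase gene, fell to 0.616 of its DMSO level. Ccng1, Zmat3 and Mdm2 rose by smaller amounts, 1.25-fold, 1.11-fold and 1.06-fold. Aen and Btg2 fell to 0.89 and 0.902 of their DMSO levels. Trp53 and Cdkn1a, the gene for the cell cycle inhibitor p21, did not pass the test, and Phlda3 was almost undetected.

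Libraries held between 59557697 and 68603842 counts. Levels are given as CPM, a gene's counts relative to the scaled total of the library. A gene with 0 counts could have had up to 3 counts, or 0.0439 to 0.0497 CPM depending on the library, by counting error alone. Gcg, the glucagon gene that defines α cells, was between 14646 and 15746 CPM in the DMSO libraries and between 7844 and 8914 CPM in the enzalutamide libraries, without overlap. Markers of somatostatin cells, pancreatic polypeptide cells and leukocytes summed to at most 0.119 CPM in any library, those of endothelium and fibroblasts to at most 0.592 and 1.18 CPM, and those of acini and ducts to at most 8.09 and 11.9 CPM. The 5 β cell markers summed to 44.2 to 48.8 CPM in DMSO and 45.7 to 49.4 CPM in enzalutamide, nearly all of it from Nkx6-1, while Ins1 and Pdx1 had 0 counts throughout. In these bulk libraries fewer cells that express a gene and less of its RNA per cell cannot be told apart.

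The stretches of promoter DNA that carry a p53 motif are shown because p53 binds DNA through this motif and the members differ in it. A match shows only that the letters are present, and binding of p53 was not measured. RefSeq promoter windows (GRCm38.p6, 250 bases before to 50 bases after a start site) were found for 8 of the 10 genes, and not for Trp53inp1 and Zmat3. Each was searched on both strands for the cores of a full p53 response element, CATGNNNNNNCATG, and for the 10-base p53 half-site consensus, which was added after the first search had been seen and whose core can be that same CATG. The full pair of cores was present in 0.712% of all 32851 windows. By gene it was in 0.333% of 9912 tested genes with a window, in 0 of 72 other p53 targets and in 1 of the 8 members, Cdkn1a. Pairs with other cores that the half-site consensus allows, such as CTTG, were not searched for and are not in these counts. The half-site consensus was present in 8.36% of all windows, in 8.02% of the tested genes, in 13 of 72 other p53 target genes with a window (18.1%) and in 5 of the 8 members. In the following stretches, read 5′ to 3′ on the gene's strand with 30 bases kept on either side where the window allowed, capitals mark the matches:
Cdkn1a (chr17:29090876-29090974, plus strand): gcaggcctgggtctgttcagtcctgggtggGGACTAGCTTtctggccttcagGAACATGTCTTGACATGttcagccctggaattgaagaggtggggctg
Mdm2 (chr10:117710905-117710974, minus strand): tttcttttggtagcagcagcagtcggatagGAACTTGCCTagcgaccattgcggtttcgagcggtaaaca
Ccng1 (chr11:40755432-40755501, minus strand): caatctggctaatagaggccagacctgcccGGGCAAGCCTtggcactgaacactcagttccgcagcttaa
Aen (chr7:78895907-78895976, plus strand): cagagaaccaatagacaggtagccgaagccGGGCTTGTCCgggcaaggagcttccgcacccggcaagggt
Trp53 (chr11:69580254-69580323, plus strand): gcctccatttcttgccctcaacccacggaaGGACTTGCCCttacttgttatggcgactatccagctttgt

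Cdkn1a has 2 annotated start sites 2790 bases apart, and the match lay 48 bases before the upstream one, where the cores CATG and CATG are separated by 6 bases. One half-site match overlapped that pair and a second began 73 bases before the same start. The half-site matches of Mdm2, Ccng1 and Trp53 began 186, 185 and 75 bases before their starts, and that of Aen 121 bases before the downstream of its 2 annotated starts and 10 bases after the upstream one. The windows of Plk2, Btg2 and Phlda3 held no match, which says only that these letters are absent from these windows. Genes with a match included 2 that rose (Mdm2, Ccng1), 1 that fell (Aen) and 2 that did not pass (Cdkn1a, Trp53). Among those without a match Plk2 and Btg2 fell and Phlda3 was not tested. Trp53inp1 and Zmat3, which had no window, rose. Over all tested genes 19% were called higher and 18.8% lower. Whether a match goes with the direction of change was not tested.

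Trp53 (chromosome 11, 69580359 to 69591873, GRCm38/mm10) was the first gene examined, since the others are read out below it. Its levels were 64.3, 63.1, 64.8, 68.6 and 63.8 CPM in DMSO libraries 1 to 5 and 65.7, 67.1, 65.3, 57.5 and 63.6 CPM in enzalutamide libraries 1 to 5. The groups overlapped. The highest value was that of DMSO library 4, and the lowest, that of enzalutamide library 4, stood away from the rest. Its log2 fold change, here and below that of enzalutamide against DMSO, was -0.02 (SE 0.044, 95% interval -0.11 to 0.06, adjusted p = 0.713), and it was 0.01 with libraries scaled to their total counts or without enzalutamide library 4. The paralogues of p53 were near the detection limit. Trp73 had between 0 and 19 counts per library, and Trp63 had 7 counts in enzalutamide library 4 and 0 in the others.

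Across the 10 genes, 4 passed the test as higher with enzalutamide and 3 as lower. A gene passed when its p from the quasi-likelihood test of edgeR, after Benjamini-Hochberg adjustment over all tested genes, was under 0.05. The same rule called 19% of all tested genes higher and 18.8% lower, 37.8% in all, so that 50.3% of calls were higher (60.7% with libraries scaled to total counts). Without DMSO library 2 the members held 2 higher calls, those of Trp53inp1 and Ccng1, and 3 lower ones. The 7 calls are set against that share as a description, because the genes were chosen with earlier results of these data known. The median log2 fold change was 0.08 over the 9 tested members and 0.01 over all tested genes. The groups' values did not overlap for 6 members, where 26.8% of all tested genes had no overlap. Enzalutamide was above for 3 members (13.1% of all tested genes) and below for 3 (13.7%).

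**Figure D1:**
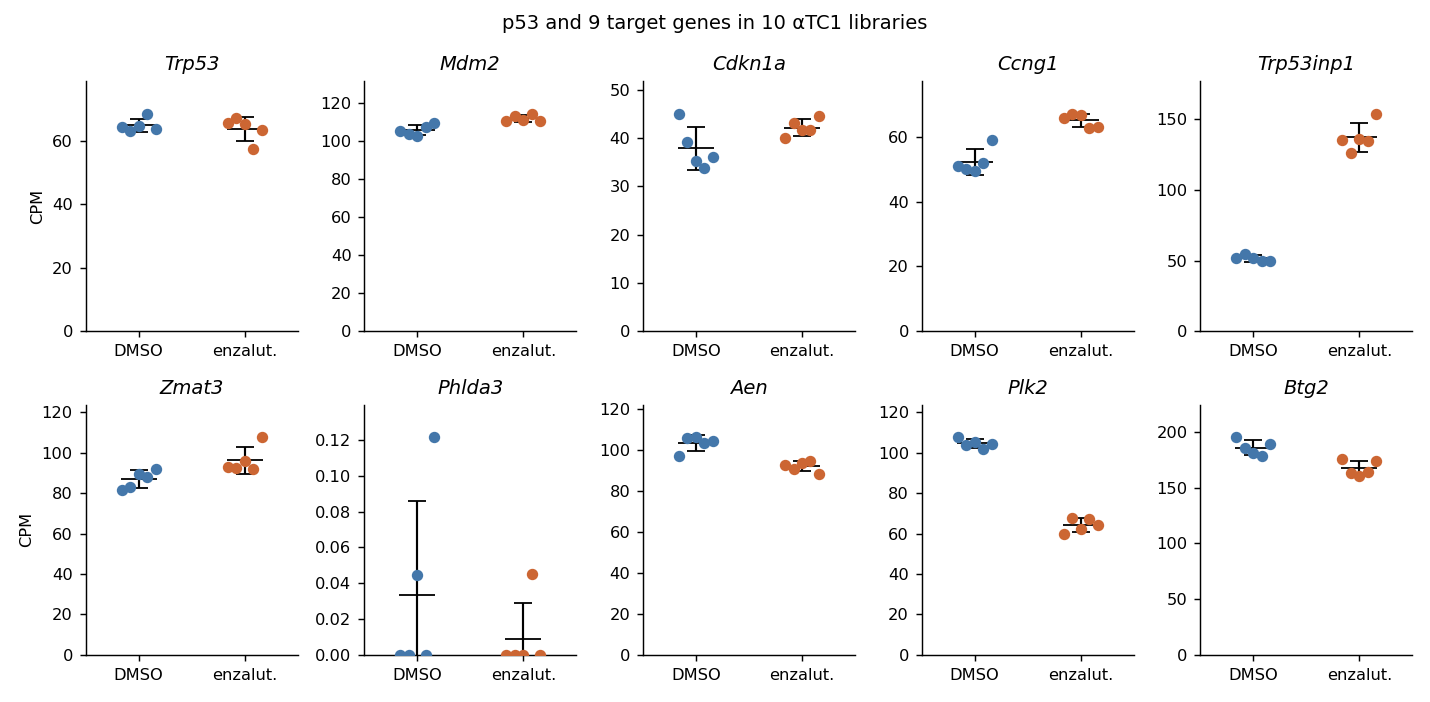
Level of each member (CPM, y axis from 0) in the 5 DMSO libraries (blue) and the 5 enzalutamide libraries (orange), ordered from library 1 to 5 within a group, with the mean and SD in black (the SD of Phlda3 is drawn from 0 upward only). Trp53inp1 and Plk2 separate widely, whereas Trp53 and Cdkn1a overlap between the groups.

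The members Mdm2 and Ccng1 act in feedback on p53, and both rose. Mdm2 (chromosome 10, 117688875 to 117710758) was at 105, 103, 102, 107 and 109 CPM in DMSO and at 110.2, 113, 111, 114 and 110.2 CPM in enzalutamide. No treated library was as low as any control, but DMSO library 5 came close to enzalutamide libraries 1 and 5. The difference of 0.08 on the log2 scale (SE 0.031, adjusted p = 0.0447) was the least of those that passed. The adjusted p rose to between 0.0565 and 0.109 without any 1 of DMSO libraries 1 to 4 or enzalutamide libraries 1 to 4, and it was 0.0504 with relative log expression size factors and 0.0668 with the replicate number as a block.

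Ccng1, which encodes cyclin G1, a partner of a phosphatase that acts on Mdm2, rose clearly. Ccng1 (chromosome 11, 40748552 to 40755311) was at 51.0, 49.9, 49.4, 51.8 and 59.0 CPM in DMSO and at 65.8, 67.1, 66.6, 62.5 and 63.1 CPM in enzalutamide. DMSO library 5 was the highest of its group and still below every treated library. Its log2 fold change was 0.32 (SE 0.0483, adjusted p = 5.48e-05).

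The members Cdkn1a, Plk2 and Btg2 act on proliferation; Plk2 and Btg2 fell, and Cdkn1a did not pass. Cdkn1a encodes p21, which inhibits cyclin-dependent kinases and is the target through which p53 arrests the cycle. Cdkn1a (chromosome 17, 29090976 to 29100727) was at 45.0, 39.2, 35.2, 33.8 and 36.0 CPM in DMSO and at 39.9, 43.0, 41.6, 41.7 and 44.5 CPM in enzalutamide. DMSO library 1 was the highest of all 10 libraries, while the other DMSO libraries lay below every enzalutamide library. On the log2 scale the difference was 0.16 (SE 0.0656, 95% interval 0.03 to 0.28), and the adjusted p of 0.0733 did not pass. Without DMSO library 1 the log2 fold change was 0.22 with an adjusted p of 0.00323, and the adjusted p was 0.0316 with total-count scaling and 0.0492 with trends of GC content and length removed.

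Plk2, a kinase that is also an early gene of growth factor signalling, fell most among the members. Plk2 (chromosome 13, 110395046 to 110400844) was at 108, 104, 105, 102 and 104 CPM in DMSO and at 59.8, 67.9, 62.4, 67.4 and 64.3 CPM in enzalutamide. No treated library came near the lowest control. On the log2 scale Plk2 fell by 0.70 (SE 0.039, adjusted p = 3.89e-10), and 870 tested genes changed by more on this scale.

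Btg2 encodes an antiproliferative cofactor of mRNA deadenylation and is likewise known as an early gene. Btg2 (chromosome 1, 134075170 to 134079120) was at 195, 185, 181, 178 and 189 CPM in DMSO and at 176, 163, 161, 165 and 174 CPM in enzalutamide. The groups did not overlap, although the lowest DMSO and the highest enzalutamide library were close. On the log2 scale Btg2 fell by 0.15 (SE 0.035, adjusted p = 0.0027).

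The remaining members act in stress responses, RNA binding and cell death. Trp53inp1 (chromosome 4, 11156431 to 11174379) was at 51.9, 54.9, 51.7, 49.4 and 49.8 CPM in DMSO and at 136, 126, 136, 135 and 154 CPM in enzalutamide. Every treated library was more than 2 times as high as every control. For Trp53inp1 the log2 fold change was 1.41 (SE 0.0484, adjusted p = 6.02e-13), the rank of its adjusted p was 16 of 14156, and 158 tested genes changed by more. Its paralogue Trp53inp2 averaged 415 ± 12.2 CPM with DMSO and 409 ± 9.62 CPM with enzalutamide (SD, n = 5 each; log2 fold change -0.02, adjusted p = 0.635).

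Zmat3, a zinc finger protein gene whose product binds RNA, rose slightly. Zmat3 (chromosome 3, 32334792 to 32366014) was at 81.4, 83.3, 89.3, 88.2 and 92.1 CPM in DMSO and at 93.1, 92.3, 96.0, 92.1 and 108 CPM in enzalutamide. The groups met at DMSO library 5 and enzalutamide library 4, and enzalutamide library 5 stood above the others. For Zmat3 the log2 fold change was 0.15 (SE 0.0472, adjusted p = 0.0197), and the adjusted p was 0.0659 without DMSO library 1, 0.0534 without DMSO library 2 and up to 0.0539 in limma-trend.

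Aen, an exonuclease that takes part in apoptotic DNA breakdown, fell. Aen (chromosome 7, 78895854 to 78911209) was at 97.3, 106, 106, 103 and 105 CPM in DMSO and at 93.0, 91.1, 93.8, 94.8 and 88.4 CPM in enzalutamide. The groups did not overlap, and DMSO library 1 was the lowest control. Its log2 fold change was -0.17 (SE 0.035, adjusted p = 0.000998).

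Phlda3 (chromosome 1, 135766119 to 135769136), which encodes an inhibitor of Akt signalling, had 3 counts in DMSO library 3, 8 in DMSO library 5, 3 in enzalutamide library 4 and 0 in the others. It did not enter the test, and a difference was not detectable at this depth.

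**Figure D2:**
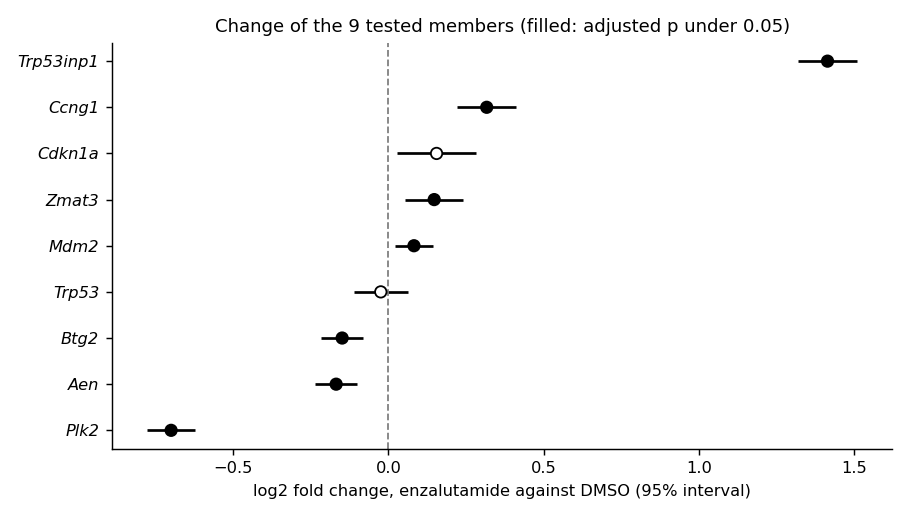
Log2 fold change of enzalutamide against DMSO (x axis) of the 9 tested members with 95% intervals; filled points have an adjusted p under 0.05 in edgeR and open points do not. The points run from -0.70 for Plk2 to 1.41 for Trp53inp1, and the other 7 lie between -0.17 and 0.32.

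Ratios to Trp53 within each library do not depend on how libraries are scaled. The Trp53inp1 to Trp53 count ratio was 0.72 to 0.871 in DMSO and 1.88 to 2.42 in enzalutamide. For Ccng1 the ratio was 0.755 to 0.924 in DMSO and 0.993 to 1.09 in enzalutamide, and for Plk2 it was 1.48 to 1.67 and 0.911 to 1.17. These were the members whose ratios did not overlap between groups. The share of all tested genes whose ratio to Trp53 did not overlap was not computed. The Mdm2 to Trp53 ratio was 1.56 to 1.71 in DMSO and 1.68 to 1.98 in enzalutamide, and the ratios of Cdkn1a, Zmat3, Aen and Btg2 also overlapped. Each ratio also carries the spread of Trp53 between libraries. Mdm2, Aen and Btg2 overlapped as ratios although their CPM values did not.

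Levels of different genes were compared per kilobase of annotated exon. In DMSO the order was Btg2 (67.7 ± 2.43 CPM per kb), Plk2 (23.3 ± 0.472), Mdm2 (20.8 ± 0.54), Aen (17.9 ± 0.636), Trp53 (16.05 ± 0.534), Ccng1 (14.9 ± 1.11), Cdkn1a (10.7 ± 1.26), Trp53inp1 (7.96 ± 0.339) and Zmat3 (7.6 ± 0.386; SD, n = 5 each). Aen and Trp53, Trp53 and Ccng1, and Trp53inp1 and Zmat3 were neighbours whose library values overlapped. Measured this way, the level of Trp53 in DMSO exceeded that of 75% of the 13985 tested genes with a length, and Cdkn1a exceeded 64.5%. In enzalutamide Trp53inp1 stood at 21.2 ± 1.57 CPM per kb, overlapping Mdm2 (22.0 ± 0.347), and Plk2 at 14.3 ± 0.76, overlapping Trp53 (15.8 ± 0.924). Phlda3 was last in both groups, at 0.0213 ± 0.034 and 0.00577 ± 0.0129 CPM per kb.

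Within the groups the members did not vary together as 1 set. After subtraction of each group's mean, the 36 pairs of tested members had Pearson correlations of log2 CPM between -0.71 and 0.65 over 10 libraries, with a median of -0.15. Mdm2 and Ccng1 had the highest value, and Cdkn1a and Aen the lowest. The genes with the highest correlation with Trp53 by this measure were Tspan5 (0.97), Tff3 (0.93) and Gm15817 (0.91). Tff3 and Gm15817 averaged 0.139 and 0.159 CPM in DMSO, so their correlations rest on few counts, whereas Tspan5 averaged 121 CPM. For Cdkn1a they were Rgs11 (0.98; 0.71 CPM in DMSO), P4ha1 (0.95) and Ncapd3 (0.94), and for Mdm2 they were Znhit3 (0.92), Naa60 (0.92) and Atmin (0.89). These are descriptions taken from 14156 candidates in 10 libraries of 1 line that share their processing.

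Of 25 tested genes of the p53 family and its regulators, Trp53 and Mdm2 included, 3 rose and 5 fell, with a median log2 fold change of -0.05. The 8 calls are 32% of the list, below the 37.8% of all tested genes. Mdm4, which encodes the partner of Mdm2 that blocks p53, averaged 83.4 ± 5.67 CPM with DMSO and 80.5 ± 8.36 CPM with enzalutamide (log2 fold change -0.05, adjusted p = 0.571). Cdkn2a, whose products include the Mdm2 inhibitor p19Arf and the kinase inhibitor p16, was at 152 ± 4.77 and 153 ± 12.3 CPM (log2 fold change 0.01, adjusted p = 0.86); these gene counts do not separate the 2 products. Usp7, a deubiquitinase of p53 and Mdm2, fell (log2 fold change -0.13, SE 0.0302, adjusted p = 0.00242), as did the phosphatase gene Ppm1d (-0.19, SE 0.0605, adjusted p = 0.0178) and Npm1, the nucleophosmin gene (-0.18, SE 0.0343, adjusted p = 0.000407). Atr, a kinase of the replication stress response, rose (0.16, SE 0.0442, adjusted p = 0.00877). The count of called regulators was 8 with all libraries, 5 without DMSO library 2, and 4 without DMSO library 3 or DMSO library 4.

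Of 76 tested genes in 4 lists of further p53 targets (arrest, death, repair and metabolism) 21 rose and 15 fell, 47.4% of them against 37.8% of all tested genes, with a median log2 fold change of 0.05. The arrest and signalling list had 7 of 22 tested genes higher and 7 lower, 63.6% of the list. Sesn2, a sestrin that restrains mTORC1, rose from 105 ± 3.53 to 193 ± 7.55 CPM (SD, n = 5 each; log2 fold change 0.88, SE 0.0354, adjusted p = 4.65e-12), and Ddit4, another brake on mTORC1, rose from 90.5 ± 6.41 to 182 ± 6.64 CPM (1.01, SE 0.0445, adjusted p = 1.67e-11). Gadd45a, a growth arrest and DNA damage gene, rose 1.26-fold (adjusted p = 5.41e-07), and Gtse1, a mitotic protein that restrains p53, fell (log2 fold change -0.47). Sesn1, the sestrin gene paired with Sesn2 among p53 targets, fell (-0.16, adjusted p = 0.00374) and was named after its values had been seen.

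In the cell death list 2 of 15 tested genes rose and 0 fell in edgeR, 13.3% of the list against 37.8% of all tested genes. At an unadjusted p under 0.05 the counts were 6 and 1, and DESeq2 and limma-voom each called 2 higher and 1 lower, in DESeq2 Tnfrsf10b, a death receptor gene with too few counts for the edgeR test. Bbc3, which encodes the BH3-only protein PUMA, was at 7.6, 7.94, 7.86, 5.71 and 5.88 CPM in DMSO and at 13.9, 17.8, 14.2, 14.5 and 12.6 CPM in enzalutamide. Its groups were well apart (log2 fold change 1.06, SE 0.11, adjusted p = 8.35e-07). Bid, another BH3-only gene, rose 1.32-fold (adjusted p = 0.00922). Bax, the pore-forming effector, was at 104 ± 5.87 and 112 ± 8.77 CPM (log2 fold change 0.11, adjusted p = 0.107, and 0.0328 with total-count scaling, 0.0482 without DMSO library 3 and 0.0262 without enzalutamide library 5). Pmaip1, which encodes NOXA, had 0 counts in every library. The list held 5 called genes with total-count scaling and 4 without enzalutamide library 5.

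In the DNA repair list 4 of 13 genes rose and 5 fell, 69.2% of the list against 37.8% of all tested genes. Besides Gadd45a, those with the lowest adjusted p were the single-strand binding subunit gene Rpa1 (log2 fold change -0.30), the ligase gene Lig1 (-0.23) and the translesion polymerase gene Polh (-0.23). Of 27 tested genes of metabolism and membranes 9 rose and 3 fell, 44.4% of the list against the same 37.8%. Among them were Cpt1c, a brain-type carnitine palmitoyltransferase (0.28), Lpin1, a phosphatidate phosphatase (0.32), Klhl26, a Kelch-family gene (0.44), and Gpx1, a glutathione peroxidase (-0.40).

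A further list held p53 targets that the stress factors ATF4 or CHOP are also known to induce. Of its 9 tested genes 6 were higher and 0 lower in edgeR, with a median log2 fold change of 0.88. The 6 were 66.7% of the list, where 19% of all tested genes were called higher. At an unadjusted p under 0.05 there were 7 higher and 0 lower, DESeq2 called 6 and 1 (again Tnfrsf10b), and limma-voom called 7 and 0. Besides Trp53inp1, Sesn2, Ddit4 and Bbc3 the list held Gadd45a and Atf3, which rose, and Cdkn1a, Gdf15 and Gls2, which did not pass. Gdf15 had between 0 and 19 counts per library. This list was set with the behaviour of ATF4 targets in these libraries known, so its direction is not independent evidence. The part of ATF4 in the change of Trp53inp1 was not tested.

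A list of early genes induced by serum or ERK signalling includes Plk2 and Btg2. Of its 21 tested genes 11 were lower and 0 higher in edgeR, with a median log2 fold change of -0.15. The 11 were 52.4% of the list, where 18.8% of all tested genes were called lower. It was chosen with earlier results of these data known, so its direction is not independent evidence. The counts were again 11 and 0 at an unadjusted p under 0.05, in DESeq2 and in limma-voom. Apart from Plk2, the lowest adjusted p values belonged to the ERK phosphatase gene Dusp6 (-2.37), Fos, a subunit of AP-1 (-2.44), and the ETS factor gene Etv5 (-1.98). In the same list Plk3 (0.02, adjusted p = 0.926) and Btg1 (0.06, adjusted p = 0.682), the paralogues of the member genes Plk2 and Btg2, did not pass. The part of ERK signalling in the falls of Plk2 and Btg2 was not tested.

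**Figure D3:**
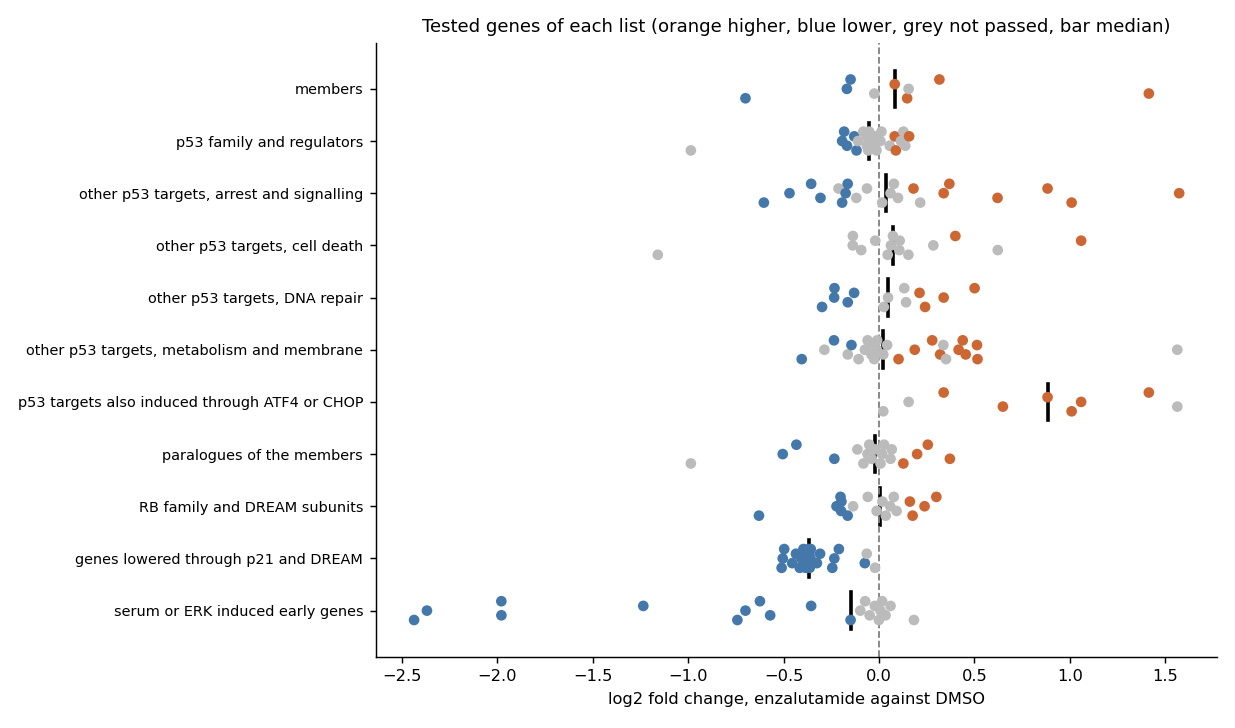
Log2 fold change of enzalutamide against DMSO (x axis) for every tested gene of the members and of 10 related lists, with orange for higher and blue for lower at an adjusted p under 0.05, grey for genes that did not pass, and a black bar at the median. Members spread to both sides of 0, the ATF4 or CHOP list has its median at 0.88 and the p21 and DREAM list at -0.37.

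Of 19 tested paralogues of the members 4 rose and 3 fell, with a median log2 fold change of -0.02. These calls, 36.8% of the list, are close to the share of all tested genes called. The risers were Cdkn1b, which encodes the kinase inhibitor p27 (0.20, adjusted p = 0.000457), the cyclin I gene Ccni (0.26), the antiproliferative gene Btg3 (0.13) and the exonuclease gene Isg20 (0.37). The mitotic kinase gene Plk1 (-0.50), the centriole kinase gene Plk4 (-0.23) and the antiproliferative gene Tob1 (-0.43) fell. Those that did not pass were Trp73, Mdm4, Ccng2, Trp53inp2, Zmat1, Zmat2, Phlda1, Isg20l2, Rexo4, Plk3, Btg1 and Tob2. Phlda1 was at 23.7 ± 1.18 CPM in DMSO, whereas Phlda2 had 0 counts in every library.

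Cell cycle genes that p53 lowers through p21 were lower in enzalutamide. These genes are known to be held down by the DREAM complex, which p21 favours. This complex pairs a retinoblastoma family protein with E2F4 and the MuvB core. Large T antigen binds the retinoblastoma family, and whether DREAM acts in this line was not measured. Of 26 tested genes 24 fell and 0 rose in edgeR, with a median log2 fold change of -0.37. The 24 were 92.3% of the list, where 18.8% of all tested genes were called lower. The counts were again 24 and 0 at an unadjusted p under 0.05, in DESeq2 and in limma-voom. This list was chosen with earlier results of these data known, so its direction is not independent evidence. Ccnb1 (-0.51), Plk1 (-0.50), Prc1 (-0.43) and Ccna2 (-0.39), all of mitosis or its entry, had the lowest adjusted p. Cdkn1a itself did not pass in the same libraries (log2 fold change 0.16, adjusted p = 0.0733 in edgeR). Without DMSO library 1 its adjusted p was 0.00323. Of 18 genes of the retinoblastoma and E2F families and the subunits of DREAM and its activating counterparts 4 rose and 6 fell, with a median of 0.00. These calls were 55.6% of the list, against 37.8% of all tested genes. The called genes included Mybl2, a subunit of the activating complex (-0.63), Foxm1, its partner in mitotic transcription (-0.20), the E2F gene E2f2 (-0.20) and the E2F partner gene Tfdp2 (0.30). Whether p21 or DREAM took part in the fall of these genes was not tested.

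**Figure D4:**
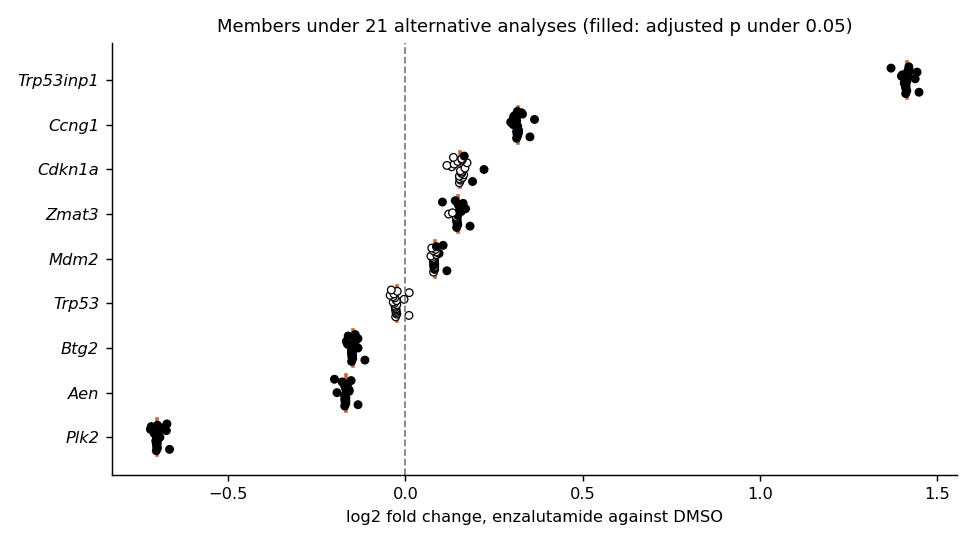
Log2 fold change of enzalutamide against DMSO (x axis) of the 9 tested members under 21 alternative analyses (points, filled where the adjusted p was under 0.05) and in the main analysis (orange bars). Points of Trp53inp1, Ccng1, Btg2, Aen and Plk2 are filled throughout, those of Mdm2, Zmat3 and Cdkn1a are mixed, and those of Trp53 are all open.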

How the data were processed

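The authors deposited whole-number counts per Ensembl gene and a scaled signal. HISAT2, StringTie, DESeq2 and the build mm10 are listed in the submitters' processing notes. The sources used here give no versions, roles, strand setting or handling of multi-mapping reads. Each deposited signal value times 1 factor per library (0.923 to 1.04) gave the count within 0.01 for all 20039 genes matched by a unique symbol. The counts were analysed with edgeR 4.0.16 in R 4.3.3 (filterByExpr, trimmed mean of M values, quasi-likelihood test of enzalutamide against DMSO without covariates, Benjamini-Hochberg adjustment, threshold 0.05). SE is the absolute log2 fold change over the square root of F, and intervals are normal. The fit was tested on simulated data. Alternatives used DESeq2 1.42.0, limma 3.58.1, other scalings and filters, summed symbols, a replicate block and each library left out. GC and length trends were added after the data were seen. Within each group all pairs of libraries differed by more than counting noise (chi-square over its degrees of freedom 9.23 to 37.3). The labels name the libraries biological replicates without describing separate cultures, so p-values reflect the spread among these libraries.

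Members, 10 gene lists and tests were chosen with earlier results of these data known. Named genes were all members, up to 4 passing genes with the lowest adjusted p in each list, the regulators Mdm4, Cdkn2a, Ppm1d and Usp7, the death genes Bax, Bbc3 and Pmaip1, all measured paralogues, and the 3 genes most correlated with Trp53, Cdkn1a and Mdm2. Among them, 5 of 225 listed symbols were matched by identifier. Positions came from GENCODE M21 (GRCm38/mm10). On it only Cdkn1a overlaps another gene, AC167363.2, on the other strand. Phlda3 did not pass the filter. Columns of per-library values left unused numbered 0. Results for some of the marker genes examined are not reported here.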

Additional observations from a re-analysis of the deposited data

Results flagged for a closer look

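Among 116 sets of 5 values (members and named genes, by group) 7 had 1 library set apart from the other 4 by more than 0.71 of the group's range, and chance alone gives about 1 in 20. Ccng1 in DMSO library 5 was at 59.0 CPM, against 49.4 to 51.8 CPM in the other controls. Zmat3 in enzalutamide library 5 was at 108 CPM, against 92.1 to 96.0 CPM. Phlda3 in enzalutamide library 4 was at 0.045 CPM, which is 3 counts, against 0 in the others. Usp7 in DMSO library 2 was at 144 CPM, against 136 to 138 CPM, and Isg20 in DMSO library 1 was at 16.8 CPM, against 10.8 to 12.5 CPM. Btg3 in DMSO library 1 was at 235 CPM, against 224 to 226 CPM, and Ccnb1 in enzalutamide library 3 was at 150 CPM, against 136 to 139 CPM.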

How the results depend on the processing

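Under 21 alternatives Trp53inp1, Plk2, Ccng1, Aen and Btg2 kept their direction and an adjusted p under 0.05, and 3 members were lower in each. The number of higher members was 2 to 4 when 1 library was left out (2 without DMSO replicate 2) and 5 with total-count scaling or with GC and length trends removed. Leave-one-out counts ranged from 4 to 8 for p53 family and regulators and from 2 to 4 for cell death targets, and the latter was 5 with total-count scaling. Total-count scaling gave 3285 higher and 2131 lower genes, so that 60.7% of calls were higher, against 50.3% in the main analysis. Values near 0 changed sign. On the log2 scale Trp53 was 0.0102 and Trp53inp2 0.0146 with total-count scaling. This scaling raised the log2 fold changes of the tested genes by a median of 0.0345 over the main analysis. With GC and length trends removed Cdkn2a was -0.0489, Zmat2 was 0.000541, Phlda1 was -0.0145 and Plk3 was -0.0648. With 1 library left out Trp53 ranged from -0.0428 to 0.011, Mdm4 from -0.104 to 6.07e-05, Cdkn2a from -0.0263 to 0.0555, Phlda1 from -0.0175 to 0.0458, Isg20l2 from -0.0196 to 0.0625, Plk3 from -0.0376 to 0.0567 and Btg1 from -0.021 to 0.132. The cause was not tested. Same-numbered libraries did not deviate together (correlations -0.15 to 0.23, and 1 of 5 DMSO libraries correlated best with its own number). With the replicate block 2659 genes were higher and 2637 lower, with 3 members in each direction. Trp73 (19 counts at most), Trp63 and Phlda3 are limited by depth.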

Other observations

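Further p53 target genes outside the naming rule were described after their values had been seen. Tnfrsf10b, which encodes a TRAIL death receptor (chromosome 14, 69767472 to 69784411), had 24, 10, 9, 9 and 12 counts in DMSO libraries 1 to 5 and 0 in every enzalutamide library. With 3 counts per library put in place of the zeros, its mean was 4.26-fold lower in enzalutamide. That floor covers counting error alone, and zeros also stood beside larger counts within a group. Trp73 had 15 and 13 counts in enzalutamide libraries 1 and 5 and 0 in libraries 2 to 4. The fold is therefore not a firm lower bound. It fell below the filter on low counts. Without a filter its adjusted p was 0.00121 in edgeR's quasi-likelihood test, and in DESeq2 it was 5.15e-06.

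Trp53cor1, a long non-coding RNA gene known as lincRNA-p21, lies on chromosome 17 (29057430 to 29079179, minus strand), 11.8 kb from the start of Cdkn1a. Its levels were 0.141, 0.398, 0.832, 0.518 and 0.501 CPM in DMSO and 1.49, 1.21, 1.77, 1.01 and 1.68 CPM in enzalutamide, with no overlap between the groups. The log2 fold change was 1.57 (SE 0.35, adjusted p = 0.00173 in edgeR), and with any 1 library left out the adjusted p was at most 0.00648. Its neighbour Cdkn1a had a log2 fold change of 0.16 in the same libraries and did not pass (adjusted p = 0.0733 in edgeR, and 0.00323 without DMSO library 1).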
